A study of Caenorhabditis elegans with 24 samples.

Results

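The genes described here are 9 components of the machinery that copies and amplifies siRNAs in Caenorhabditis elegans, namely the RNA-dependent RNA polymerase genes ego-1, rrf-1, rrf-2 and rrf-3 and the mutator genes mut-2, mut-7, mut-14, mut-16 and rde-2. They were taken by name, 1 row each, from the 20176 genes of a small RNA table, and the rule that names them uses no measured value. The quantity is the siRNA antisense to each gene's mRNA, in RPKM (reads per kilobase of exon, scaled to the total reads of the library), which is not the amount of the mRNA or of the protein. It was measured in whole young adults of N2, the wild type (WT), and hrde-1(tm1200), a mutant in the germline nuclear Argonaute HRDE-1. Both were fed E. coli OP50, and the labels name no other allele or agent in either strain. The animals were cultured for 12 generations, of which 3 were kept at 15 °C (named 15C-G1 to G3), the next 6 at 23 °C (named 23C-G1 to G6) and the last 3 again at 15 °C (named p15C-G1 to G3). From the release of L1 larvae to the harvest of adults, 114 to 120 h passed in the cool generations and 50 to 55 h in the warm ones.

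Each generation gave 1 library per genotype, 24 in all, from 1 lineage of each strain and 1 hrde-1 allele. The study's phases I (15C-G1 to G3), II (23C-G1 to G3), III (23C-G4 to G6) and IV (p15C-G1 to G3) therefore hold 3 successive generations of 1 population, and every p-value below rests on the spread between such generations and not between independent lineages. The reads behind a library, inferred from the step between low values, ranged from 299300 in WT 23C-G4 to 1041700 in WT p15C-G2. The siRNA over the hrde-1 gene itself separated the genotypes without overlap, from 250 to 321 RPKM in the WT libraries and from 119.4 to 164.0 RPKM in the mutant ones, and how much of this gap lies within the deleted sequence was not tested. Summed siRNA over 8 oocyte genes ranged from 572 to 1078 RPKM across libraries and that over 9 genes of proliferating germline and meiosis from 747 to 1255 RPKM. Over 6 intestine genes it ranged from 8.17 to 21.2 RPKM and over 5 muscle genes from 2.47 to 17.95 RPKM. These sums are near the floor, since 1 read over 1 kb is worth 0.96 to 3.34 RPKM. Over 6 neuron genes it ranged from 41.2 to 83.2 RPKM in WT and from 74.5 to 244 RPKM in hrde-1. In whole animals, fewer cells of a type and less siRNA per cell cannot be told apart.

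Most endogenous siRNAs of C. elegans are secondary siRNAs, the 22G-RNAs, which an RNA-dependent RNA polymerase copies from a target mRNA without a double-stranded RNA intermediate. EGO-1 and RRF-1 make this class in the germline, in part redundantly, and RRF-1 also acts in the soma. RRF-3 makes the double-stranded RNA from which Dicer cuts the primary 26G-RNAs of the ERI pathway, and RRF-2 is the family member with the least known role. The mutator proteins gather in perinuclear foci beside the P granules of germ cells, where MUT-16 is the scaffold. MUT-2 (also named RDE-3) is a nucleotidyltransferase that adds tails to RNAs, MUT-7 is a 3′-5′ exonuclease-like protein, MUT-14 is a DEAD-box RNA helicase and RDE-2 (also named MUT-8) binds MUT-7. siRNAs made by this machinery are loaded on Argonautes, among them HRDE-1. All 9 genes also carry siRNAs of their own, and whether this same machinery makes them was not tested.

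On the current annotation (WBcel235) rrf-2 (M01G12.12) lies on chromosome I at 12098664 to 12106112, and ego-1 (F26A3.3, 7650341 to 7656338) and rrf-1 (F26A3.8, 7643431 to 7649777) stand next to each other on the same strand of that chromosome, 563 bp apart. Also on chromosome I are mut-2 (K04F10.6, 6356614 to 6358411), rde-2 (F21C3.4, 7280466 to 7282924) and mut-16 (B0379.3, 10080159 to 10085765). The gene rrf-3 (F10B5.7) is on chromosome II at 8162465 to 8168651, mut-7 (ZK1098.8) on III at 9539031 to 9542380 and mut-14 (C14C11.6) on V at 5658713 to 5660704. The deposited values are per whole mRNA, so that where within a gene the siRNAs lie was not measured.

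Every member carried siRNA in every library, and the genes differed from each other by a wide margin. Averaged over the 24 libraries, mut-14 stood at 224 RPKM, above 97.0% of all genes, followed by mut-7 at 106, ego-1 at 79.4, rde-2 at 52.8, rrf-1 at 51.0, rrf-3 at 45.7, mut-16 at 44.3, rrf-2 at 39.0 and mut-2 at 19.2 RPKM. Even mut-2 lay above 66.8% of genes. Since RPKM is per length, this order can be read within a library. The gene mut-14 was the highest of the 9 in all 24 libraries. Next, mut-7 was above ego-1 in 10 of 12 WT and in 12 of 12 hrde-1 libraries. ego-1 was in turn above each of the 6 genes after it in every library. In the middle of the order, rde-2 and rrf-1 could not be separated, since rde-2 was the higher one in 7 of 12 libraries of either genotype.

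The members also differed in how much they moved. From the lowest to the highest of the 24 libraries the level changed 4.16-fold for rrf-2 and 2.54-fold for mut-2, 2.33-fold for mut-7, 2.16-fold for rde-2 and 2.14-fold for rrf-3. It changed 1.88-fold for mut-14, 1.77-fold for mut-16, 1.67-fold for rrf-1 and 1.58-fold for ego-1. Depth sets what can be seen. The inferred reads were 94 to 517 per library for ego-1, 31 to 246 for rrf-2 and 7 to 25 for mut-2. For mut-2 the spread within a phase and genotype had a coefficient of variation of 19.5%, against 27.9% expected from counting reads alone. For rrf-1 these values were 7.91% and 9.11% and for mut-16 10.5% and 12.0%, so that for these 3 genes the spread between generations was no larger than counting alone would give. For rrf-2 they were 19.3% and 11.5%. Such counting errors do not cover other technical error.

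**Figure D1:**
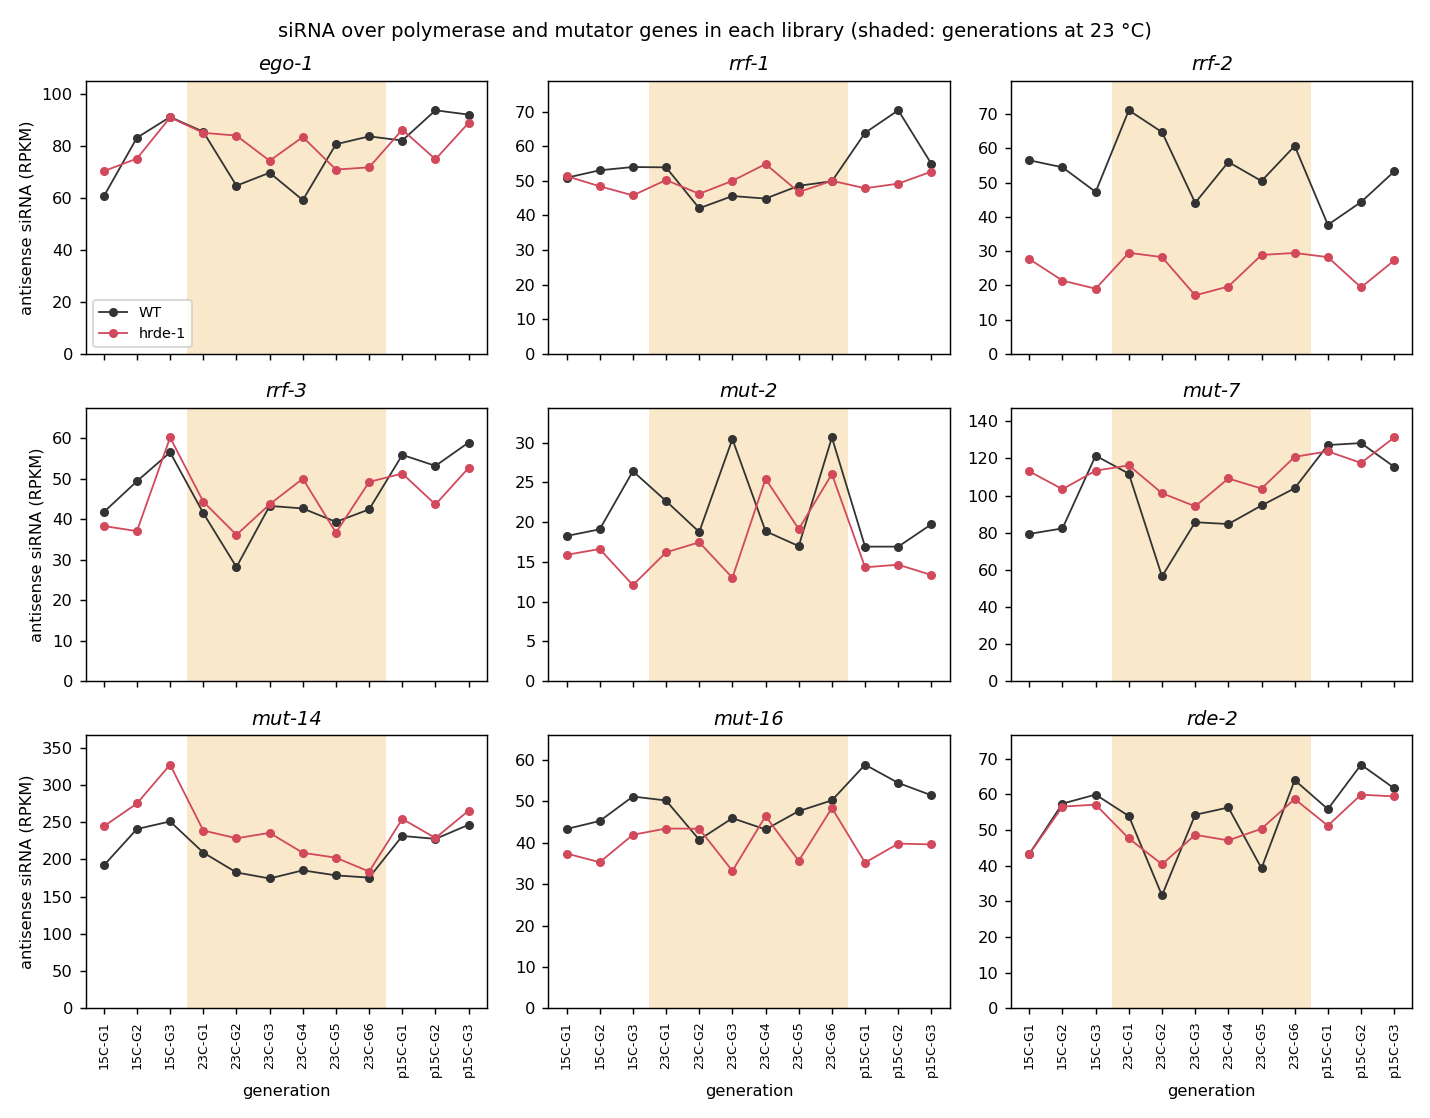
Antisense siRNA (RPKM) over each of the 9 genes in the 12 generations of WT (black) and hrde-1 (red), 1 point per library, with the 23 °C generations shaded. The lines of rrf-2 never meet (37.65 RPKM or more in WT, 29.49 or less in hrde-1), the mut-14 points dip at 23 °C in both strains, and the lines of the remaining genes cross or come close.

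The first question was whether loss of HRDE-1 changed siRNA over these genes. rrf-2 lost about 2-fold of its siRNA in the mutant, before, during and after heat. In phase I the WT libraries held 56.5, 54.4 and 47.3 RPKM and the mutant libraries 27.7, 21.4 and 19.01. In phase II, the early generations at 23 °C, the values were 71.1, 64.7 and 44.1 RPKM in WT and 29.5, 28.2 and 17.1 in hrde-1. In phase III, the late generations at 23 °C, they were 56.0, 50.4 and 60.7 RPKM in WT and 19.7, 28.9 and 29.5 in hrde-1. In phase IV, back at 15 °C, they were 37.7, 44.3 and 53.2 RPKM in WT and 28.2, 19.4 and 27.3 in hrde-1. The genotypes did not overlap in any phase, and the lowest WT library, p15C-G1, stayed above the highest mutant one, 23C-G1.

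The log2 difference of rrf-2, hrde-1 minus WT, was −1.19 ± 0.24 (SE, n = 3 libraries per genotype, adjusted p = 0.00123) in phase I and −1.24 ± 0.24 (adjusted p = 0.000985) in phase II. It was −1.09 ± 0.24 (adjusted p = 0.00344) in phase III and −0.83 ± 0.24 (adjusted p = 0.0266) in phase IV. These are from limma on log2(RPKM + 1), with Benjamini-Hochberg adjustment over 19848 genes. The mean over the 4 phases was −1.09 ± 0.12 (adjusted p = 1.38e-07, n = 12 libraries per genotype), a 2.13-fold fall with a 95% interval of −1.34 to −0.84 on the log2 scale. The fall in phase IV, 1.78-fold, was under the 2-fold limit, and its call rested on single libraries. Without WT p15C-G3 it was −0.71 (adjusted p = 0.146) and without hrde-1 p15C-G2 −0.67 (adjusted p = 0.158). In phase III the fall was −0.91 without hrde-1 23C-G4, which still passed the test (adjusted p = 0.0345) but not the 2-fold limit. The smaller fall in phase IV than in phase I was not a detectable difference (0.36 ± 0.32 on the log2 scale, 95% interval −0.30 to 1.03, adjusted p = 0.587).

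With the study's limits, an adjusted p of at most 0.1 and a fold of at least 2, rrf-2 was the only called member of the 9 in phases I, II and III, and no member was called in phase IV. The share of all tested genes called in the same way was 7.82% in phase I, 5.7% in phase II, 5.85% in phase III and 8.0% in phase IV. At an adjusted p of at most 0.1 and any size, 1 of 9 members passed in each of phases I, II and III (rrf-2) and 2 in phase IV (rrf-2 and mut-16), against 12.6%, 9.02%, 9.27% and 11.2% of genes. For the mean of the 4 phases, 1 of 9 was called at 2-fold against 5.91% of genes, and 4 of 9 passed at any size (mut-14 higher, rrf-2, mut-16 and mut-2 lower) against 23.2%. With 9 members, 1 called gene is a share near the background, and nothing is read from it about the 9 as a group. Their median log2 difference was −0.12, 0.05, 0.08 and −0.19 in phases I to IV, beside −0.19, 0.14, 0.11 and 0.07 for all genes tested. All 9 had means above 10 RPKM, and over the genes of that level the medians were 0.10, 0.09, 0.06 and 0.002, so that in phase I the background turned sign with the level.

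**Figure D2:**
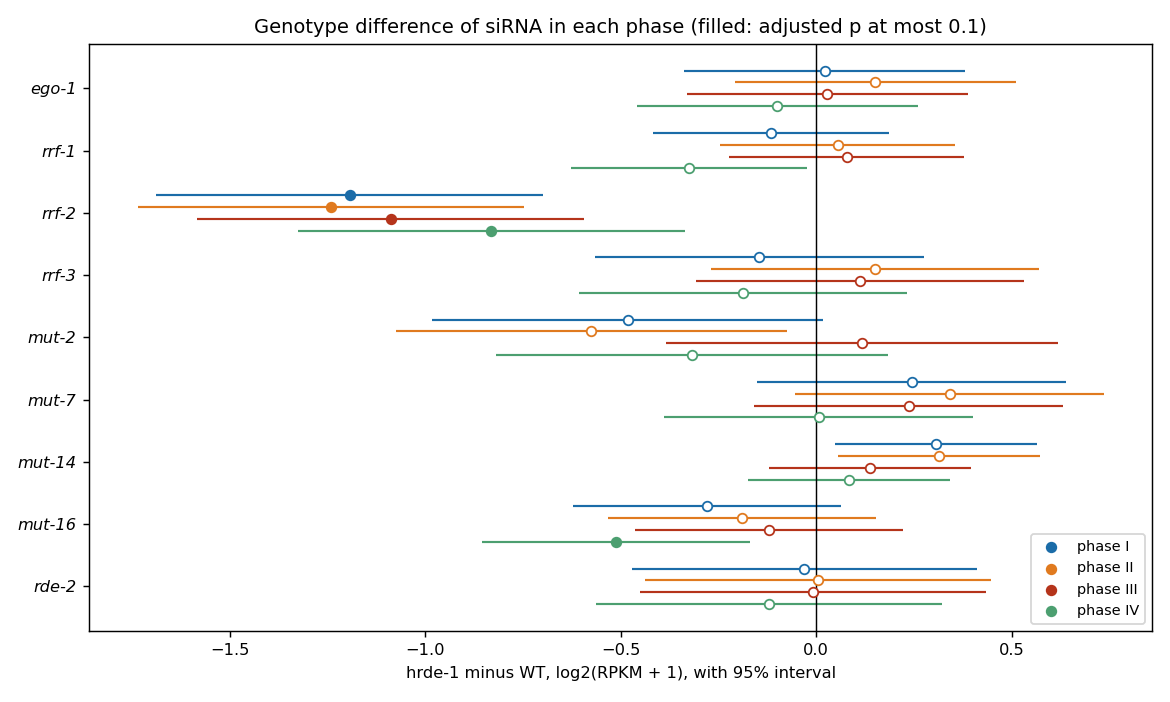
Difference between genotypes (hrde-1 minus WT, log2(RPKM + 1)) of each gene in phases I to IV, with the 95% interval of the fit (n = 3 libraries per genotype and phase). Filled points passed an adjusted p of 0.1, which were the 4 rrf-2 points (−1.24 to −0.83) and the phase IV point of mut-16 (−0.51).

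No change was detected for the other polymerase genes. ego-1, the main germline polymerase, ranged from 59.3 to 93.9 RPKM in WT (median 82.8, n = 12) and from 70.4 to 91.1 in hrde-1 (median 79.4). Its mean log2 difference was 0.03 (95% interval −0.15 to 0.21, adjusted p = 0.998 in limma). rrf-1 ranged from 42.1 to 70.4 RPKM in WT (median 52.0) and from 45.8 to 54.8 in hrde-1 (median 49.6), with a mean log2 difference of −0.08 (95% interval −0.23 to 0.07). For both genes the mutant range lay within the WT range, and neither interval reaches the rrf-2 value of −1.09.

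rrf-3, the polymerase of the ERI pathway, ranged from 28.2 to 59.0 RPKM in WT (median 43.0) and from 36.1 to 60.2 in hrde-1 (median 44.0). Its mean log2 difference was −0.02 (95% interval −0.23 to 0.19). In phase IV the WT libraries of rrf-1 (63.9, 70.4 and 54.9 RPKM) and of rrf-3 (55.9, 53.2 and 59.0) lay above the mutant ones (47.8, 49.2 and 52.7, and 51.3, 43.7 and 52.7). Neither difference passed the test (rrf-1 −0.33 ± 0.15, adjusted p = 0.226, rrf-3 −0.19 ± 0.20, adjusted p = 0.812, limma).

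The place of rrf-2 among the polymerase genes therefore differed between strains, which is given as a description chosen after the values were seen. In WT its level, 53.4 ± 9.4 RPKM (SD, n = 12), was close to that of rrf-1, 52.6 ± 8.0, and rrf-2 was the higher one in 7 of 12 libraries. In hrde-1 rrf-2 (24.6 ± 4.8 RPKM) was below ego-1, rrf-1 and rrf-3 in all 12 libraries. Of the summed RPKM of the 4 polymerase genes, rrf-2 held 23.4% ± 5.0 in WT (15.71% to 32.4%) and 12.4% ± 2.5 in hrde-1 (8.80% to 15.74%). The ranges overlapped slightly, since WT p15C-G1 lay just under hrde-1 23C-G5. This share compares genes within a library, so that the library's total does not enter it. The WT share was above the hrde-1 share of the same generation in each of the 12 generations.

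**Figure D3:**
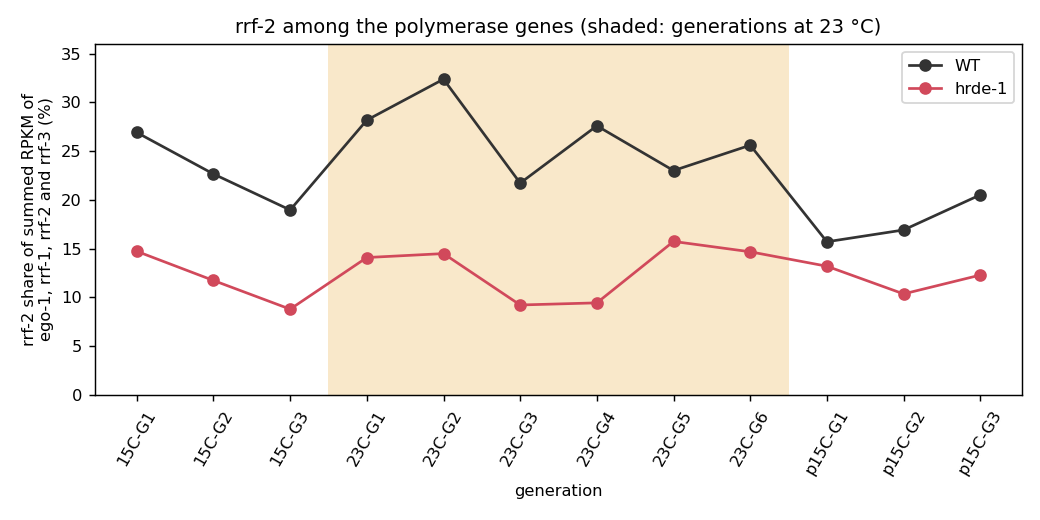
Share (%) of rrf-2 in the summed siRNA RPKM of ego-1, rrf-1, rrf-2 and rrf-3 in each library of WT (black) and hrde-1 (red) over the 12 generations, with the 23 °C generations shaded. The WT points run from 15.71% to 32.4% and the hrde-1 points from 8.80% to 15.74%, so that the ranges overlap slightly.

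Among the mutator genes, mut-14, the helicase gene with the most siRNA of the 9, was slightly higher in the mutant. In phase I it stood at 192, 241 and 251 RPKM in WT and at 244, 275 and 327 in hrde-1, and in phase II at 209, 182 and 174 in WT and at 239, 228 and 236 in hrde-1. In phase III the values were 185, 179 and 176 RPKM in WT and 209, 202 and 184 in hrde-1, and in phase IV 232, 228 and 247 against 254, 229 and 266. The genotypes overlapped in phases I, III and IV, but in each of the 12 generations the hrde-1 library was above the WT library of that generation. The log2 difference was 0.31 ± 0.12, 0.32 ± 0.12, 0.14 ± 0.12 and 0.08 ± 0.12 in phases I to IV, where no phase passed the test (adjusted p = 0.145, 0.171, 0.806 and 0.879 in limma). Phase I did pass without WT 15C-G3 (0.38, adjusted p = 0.0982) or hrde-1 15C-G1 (0.41, adjusted p = 0.0630), and phase II without WT 23C-G1 (0.39, adjusted p = 0.0989). The mean of the 4 phases passed, at 0.21 ± 0.06 (adjusted p = 0.0171, a 1.16-fold rise). Scaling the libraries by median ratios gave 0.16 (adjusted p = 0.0595). Of 17 oocyte and germline genes, 7 were higher and 0 lower in the same mean, with a median of 0.17. Their summed siRNA reached from 572 to 943 RPKM (oocyte) and 747 to 1050 RPKM (germline) in WT. In hrde-1 it reached from 800 to 1078 and 815 to 1255 RPKM. Of 9 spermatogenesis genes, 1 was higher and 2 were lower in that mean, with a median of 0.20. Of all genes 23.2% passed there in either direction. The part of these lists in the mut-14 difference was not tested.

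The paralog of mut-14, smut-1 (Y38A10A.6), encodes another helicase that acts with MUT-14 in germline RNAi, and its siRNA differed in the other direction. It was 64.3 ± 6.9 RPKM in WT and 51.4 ± 8.5 in hrde-1 (SD, n = 12), lower in the mutant in 10 of 12 generations, with a mean log2 difference of −0.33 ± 0.09 (adjusted p = 0.00835 in limma). Within a library, mut-14 held 3.24 ± 0.41 times the RPKM of smut-1 in WT (2.43 to 3.92) and 4.81 ± 1.08 times in hrde-1 (3.48 to 6.73). These ratios overlap and were not tested. How siRNAs that match both genes were counted is a point not given in the sources used here, and shared siRNAs would make the ratio uncertain.

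mut-16, the scaffold of the mutator foci, was lower in hrde-1. Over 12 generations it ranged from 40.7 to 58.9 RPKM in WT (median 48.9) and from 33.2 to 48.4 in hrde-1 (median 39.7), and was lower in the mutant in 10 of 12 generations. The mean log2 difference was −0.28 ± 0.08 (adjusted p = 0.0189 in limma, a 1.21-fold fall). In phases I, II and III taken alone, mut-16 did not pass. In phase III the genotypes overlapped, at 43.22, 47.65 and 50.25 RPKM in WT and 46.44, 35.63 and 48.39 in hrde-1. The difference was widest in phase IV, where WT held 58.9, 54.5 and 51.5 RPKM and hrde-1 35.2, 39.8 and 39.6 with no overlap (−0.51 ± 0.17, adjusted p = 0.0556). This phase IV call was lost without WT p15C-G1 (−0.46, adjusted p = 0.180), without WT p15C-G2 (−0.52, adjusted p = 0.122), without hrde-1 p15C-G1 (−0.46, adjusted p = 0.200) and without hrde-1 p15C-G3 (−0.54, adjusted p = 0.109).

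mut-2, the nucleotidyltransferase gene, ranged from 16.9 to 30.6 RPKM in WT (median 18.97) and from 12.1 to 26.0 in hrde-1 (median 16.035). The mutant was lower in 10 of 12 generations, and the genotypes did not overlap in phases I, II and IV. The log2 differences of −0.48, −0.58, 0.12 and −0.32 in phases I to IV did not pass the test in any phase. Their mean, −0.31 ± 0.12, passed narrowly (adjusted p = 0.0756 in limma). It rests on 7 to 25 inferred reads per library and did not pass without WT 15C-G3, 23C-G3, 23C-G6 or p15C-G3 or without hrde-1 15C-G3, 23C-G3, 23C-G5 or p15C-G3, each left out alone (log2 −0.31 to −0.25, adjusted p = 0.115 to 0.146).

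mut-7 was 99.3 ± 22.4 RPKM in WT and 112 ± 11 in hrde-1 (SD, n = 12), higher in the mutant in 9 of 12 generations. The mean log2 difference of 0.21 ± 0.10 did not pass (adjusted p = 0.154 in limma), though its own 95% interval, 0.01 to 0.41, does not hold 0. Without WT 23C-G1 it was 0.26 (adjusted p = 0.0340) and without WT 15C-G3 0.26 (adjusted p = 0.0526). In phase II alone mut-7 gave 0.34 (adjusted p = 0.443), and 0.57 (adjusted p = 0.0827) without WT 23C-G1. Where the test was limited to genes of 10 RPKM or more the mean was 0.21 (adjusted p = 0.0819). rde-2, which encodes the partner of MUT-7, was 53.8 ± 10.7 RPKM in WT and 51.7 ± 6.6 in hrde-1, a mean log2 difference of −0.04 (95% interval −0.26 to 0.18). It too was lower in the mutant in 10 of 12 generations, as often as mut-2 and mut-16. Such a count is therefore no measure of size, and the share of all genes that reach it was not determined.

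Read library by library, rrf-2 was the 1 member of 9 whose WT and hrde-1 libraries did not overlap over all 12 generations, as was true of 6.19% of the 8403 genes whose mean reached 10 RPKM. Within single phases the groups of 3 did not overlap for 3 members in phase I (rrf-2, mut-2 and mut-16), 3 in phase II (rrf-2, mut-2 and mut-14), 1 in phase III (rrf-2) and 5 in phase IV (rrf-1, rrf-2, rrf-3, mut-2 and mut-16). The same held for 35.4%, 29.9%, 31.0% and 40.0% of those 8403 genes, and with 9 members nothing is read from these counts.

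Temperature was the next question, asked within each strain by comparing 23C-G2 to G6 with 15C-G1 to G3. The generation moved from 15 °C to 23 °C, 23C-G1, had a mean of its own in the fit and is not part of this comparison. mut-14 was lower at 23 °C in both strains. In WT the 3 libraries at 15 °C held 192, 241 and 251 RPKM and the 5 at 23 °C 182, 174, 185, 179 and 176. In hrde-1 the libraries held 244, 275 and 327 RPKM at 15 °C and 228, 236, 209, 202 and 184 at 23 °C. In either strain every value of 23C-G2 to G6 was below every value of 15C-G1 to G3. WT 23C-G1, outside this comparison, stood at 209 RPKM, above WT 15C-G1. In p15C the levels were again 228 to 247 RPKM in WT and 229 to 266 in hrde-1.

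The log2 difference of mut-14 at 23 °C was −0.34 ± 0.11 in WT (adjusted p = 0.0677 in limma) and −0.41 ± 0.11 in hrde-1 (adjusted p = 0.0168). The responses of the strains did not differ detectably (−0.07 ± 0.16, 95% interval −0.40 to 0.26). The WT call was lost without WT 15C-G2 (−0.29, adjusted p = 0.230), 15C-G3 (−0.26, adjusted p = 0.313), 23C-G3 (−0.33, adjusted p = 0.115) or 23C-G5 (−0.33, adjusted p = 0.106), and the hrde-1 call without hrde-1 15C-G3 (−0.30, adjusted p = 0.102). With 23C-G1 counted as 23 °C the WT call was lost as well (−0.30, adjusted p = 0.115 in limma). Of the 17 oocyte and germline genes 0 were higher and 1 was lower in WT, 0 were higher and 4 lower in hrde-1, against the 11.8% and 43.5% of all genes that passed in either direction, and their median was −0.21 in both. The 43.5% includes genes at the floor, and the share was smaller among genes of 10 RPKM or more, as given below. Of the 9 spermatogenesis genes, 1 was higher and 0 were lower in WT and 0 passed in hrde-1, with medians of 0.32 and 0.27. The part of these lists in the mut-14 result was not tested.

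mut-14 was the 1 member of 9 that passed at 23 °C, at any size, against these 11.8% and 43.5% of genes. The latter share moved with 1 library and with the level of the genes. In all 8629 of 19848 genes passed, 1719 did so without hrde-1 15C-G3, and 2138 of 8403 passed where the test was limited to genes of 10 RPKM or more. The 43.5% also counts genes at the value of 1 read, where RPKM follows the depth of the library. M01G12.14, beside rrf-2, is such a gene and passed. No member changed 2-fold. By overlap, 2 members (mut-14 and rrf-1) were apart between 15C and 23C-G2 to G6 in WT, where 21.7% of the 8403 genes were, and 1 (mut-14) in hrde-1, where 23.7% were.

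The other 8 members gave 23 °C differences of −0.33 to 0.09 on the log2 scale in WT and of −0.09 to 0.39 in hrde-1, none of which passed. The lower end in WT was rrf-3 (−0.33 ± 0.18, adjusted p = 0.356 in limma), from 41.8, 49.4 and 56.5 RPKM at 15 °C to 28.2, 43.3, 42.7, 39.3 and 42.4 at 23 °C. The upper end in hrde-1 was mut-2 (0.39 ± 0.24, adjusted p = 0.209), from 15.9, 16.6 and 12.1 RPKM to 17.5, 12.99, 25.5, 19.1 and 26.0, and without hrde-1 23C-G3 it passed (0.53, adjusted p = 0.0813). rrf-2 did not respond detectably to temperature in either strain (WT 0.06, 95% interval −0.36 to 0.48, hrde-1 0.10, 95% interval −0.32 to 0.52). The genotype difference in the 23 °C response passed for 0 of 9 members against 3.09% of genes, with estimates from −0.07 to 0.30 and 0 members at an unadjusted p under 0.05.

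**Figure D4:**
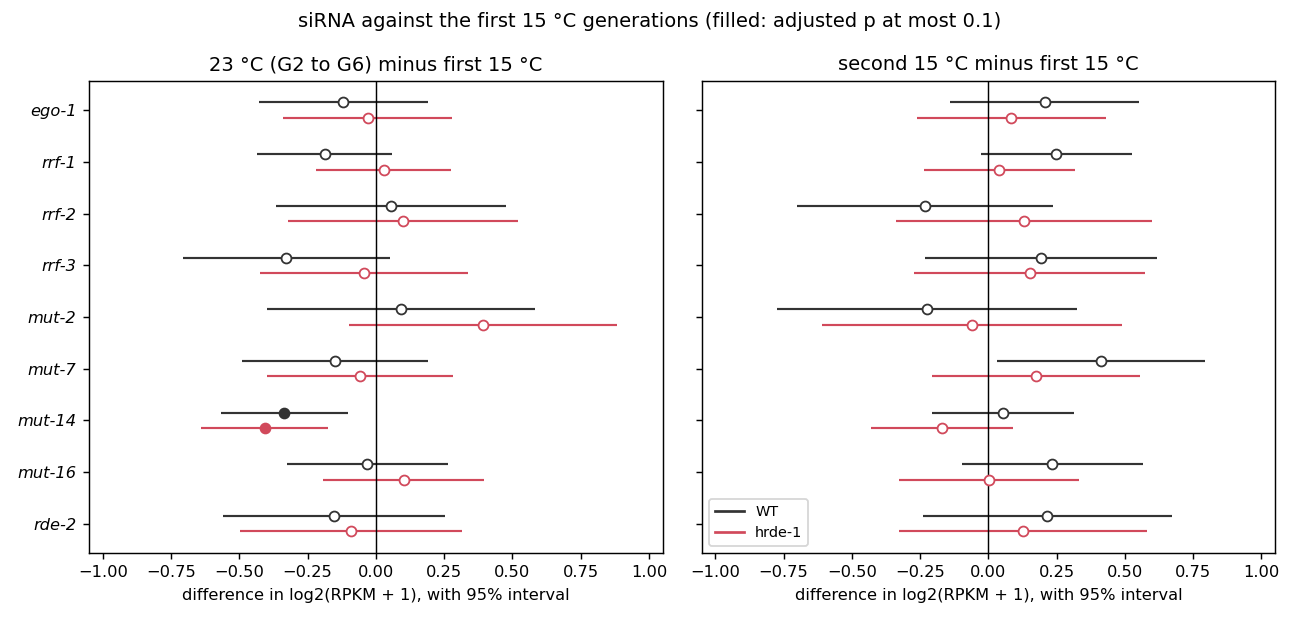
Differences of log2(RPKM + 1) from the first 15 °C generations for each gene in WT (black) and hrde-1 (red), with the 95% interval of the fit, at 23 °C (G2 to G6, left) and after the return to 15 °C (right). Filled points passed an adjusted p of 0.1, which on the left were mut-14 in WT (−0.34) and in hrde-1 (−0.41), and on the right there was none.

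After the return to 15 °C no member differed detectably from its level before heat. Comparing p15C-G1 to G3 with 15C-G1 to G3, 0 of 9 members passed in WT and 0 of 9 in hrde-1 in limma at an adjusted p of 0.1, against 22.9% and 2.54% of genes. The WT share was not stable, since 4536 of 19848 genes passed in all, 426 of 8403 where the test was limited to genes of 10 RPKM or more and 210 without WT p15C-G2. M01G12.14, at the value of 1 read, was again among the genes that passed in WT. At an unadjusted p under 0.05, 1 member passed in WT, mut-7 (0.41 ± 0.18, adjusted p = 0.130), from 79.3, 82.3 and 121.5 RPKM in 15C to 127, 128 and 115.5 in p15C. In hrde-1 0 members did so. The genotype difference in this lasting change passed for 0 of 9 members, against 1.22% of genes, and the estimates ran from −0.24 (mut-7) to 0.36 (rrf-2), with 0 members at an unadjusted p under 0.05.

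A steady change over the 6 generations at 23 °C was also sought, as a slope of log2(RPKM + 1) on the generation number. No member passed, 0 of 9 in WT against 0.519% of genes and 0 of 9 in hrde-1 against 1.17%. At an unadjusted p under 0.05 the number was 0 in either strain. The steepest falls and rises were −0.07 ± 0.04 log2 per generation for mut-14 and 0.13 ± 0.09 for mut-2, both in hrde-1, and the WT slopes lay between −0.05 (rrf-2) and 0.06 (rde-2).

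Partners of these proteins were looked at as a list of 18 genes, 17 of which were found in the table. They include Dicer (dcr-1), its helicase relative drh-3, the ERI complex, the RDE-10 and RDE-11 pair that helps RRF-1-dependent amplification, and the endonuclease genes rde-8, nyn-1 and nyn-2. None of the 17 changed 2-fold between genotypes. In the mean of the 4 phases 2 passed as higher in hrde-1, nyn-1 (0.37 ± 0.10, adjusted p = 0.00913 in limma) and dcr-1 (0.34 ± 0.09, adjusted p = 0.0102). nyn-1 ranged from 72.6 to 130 RPKM in WT and from 96.4 to 158 in hrde-1, and dcr-1 was 31.7 ± 5.4 and 40.2 ± 6.4 (SD, n = 12). As lower, 3 passed, namely smut-1, the helicase gene rde-12 (−0.27 ± 0.08, adjusted p = 0.0199) and rde-11 (−0.14 ± 0.05, adjusted p = 0.0395). The median of the list was −0.05, and nyn-1 was the 1 partner that passed in phase I (0.56, adjusted p = 0.0860). In phases II, III and IV 0 partners passed, with 3, 3 and 2 of them at an unadjusted p under 0.05.

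At 23 °C the partners went both ways. rde-11 rose in WT (0.64 ± 0.08, adjusted p = 9.85e-06 in limma) and in hrde-1 (0.49 ± 0.08, adjusted p = 0.000257), while rde-4, which encodes the double-stranded RNA binding partner of Dicer, fell in WT (−0.47 ± 0.13, adjusted p = 0.0192) and in hrde-1 (−0.35 ± 0.13, adjusted p = 0.0340). eri-3, of the ERI complex in which RRF-3 works, fell in WT (−0.53 ± 0.14, adjusted p = 0.0194) and in hrde-1 (−0.31 ± 0.14, adjusted p = 0.0968). In all, 2 of 17 rose and 2 fell in WT (nyn-2 being the other one that rose, 0.85), and 2 rose and 4 fell in hrde-1 (eri-5 rising by 0.83, rde-8 and drh-3 falling by 0.66 and 0.52), against 11.8% and 43.5% of all genes that passed in either direction. Their medians were 0.09 in WT and −0.00042 in hrde-1, beside 0.10 and 0.31 for all genes and 0.03 and −0.03 for the genes of 10 RPKM or more, the level of the partners. Among genes of that level the share that passed in hrde-1 was smaller than 43.5%, as given above.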

How the data were processed

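The authors sequenced small RNAs cloned with a method that captures siRNAs whatever their 5′ phosphate, aligned the reads with Bowtie 0.12.7 to the mRNAs of WormBase WS190, kept perfect antisense alignments and deposited RPKM values per mRNA. The treatment of reads matching several mRNAs is a point not given in the sources used here. No value was 0, and low values moved in steps as if every gene had been given a read, from which the read totals were inferred. With current mRNA lengths, 48.1% to 53.1% of the low values of a library lay within 0.1 of a whole step, so inferred reads are approximate. For the 609 genes with several mRNAs the highest was used. The 19848 genes whose mean reached 1 RPKM were tested as log2(RPKM + 1) with limma 3.58.1 in R 4.3.3 (eBayes with trend, two-sided moderated test, Benjamini-Hochberg), which understates changes of low genes. Phases and temperatures were fitted as 8 means each to all 24 libraries, and slopes to the 12 libraries at 23 °C. The fit was tested on simulated data.

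The members are named by a rule without measured values, but they, the partners and the marker lists were chosen with earlier results of these data known. Named genes are the 9 members, hrde-1, the partners that passed or share sequence with a member, and for each member the 2 genes most like it; neighbouring genes were added after the values were seen. cde-1, the 18th partner, was not matched in the table and is not analysed here. Alternatives were other pseudocounts, filters, scalings and variance priors, taking off the read floor, averaging mRNAs, a generation block, 23C-G1 counted as 23 °C, and leaving out each library.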

Additional observations from a re-analysis of the deposited data

Results flagged for a closer look

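Among the 5 generations 23C-G2 to G6 of WT, rrf-3 stood at 28.18 RPKM in 23C-G2, away from the other 4 (39.3 to 43.3 RPKM), with a gap of 0.738 of the whole range, above the critical value of 0.710 for 5 samples. This was the 1 case in 18 groups examined (9 genes in each strain), and chance alone gives about 1 in 20. WT 23C-G2 was also the lowest of the 12 WT libraries for rrf-1, mut-7, mut-16 and rde-2, that is for 5 of the 9 genes. In the same library the summed siRNA over 9 spermatogenesis genes was the highest of the 24 (243 RPKM) and that over 8 oocyte genes the lowest (572 RPKM), and their part in these values was not tested. Without this library the 23 °C difference of rrf-3 in WT was −0.22 (adjusted p = 0.645 in limma) in place of −0.33, and that of mut-14 −0.34 (adjusted p = 0.0910).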

How the results depend on the processing

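Across 3600 values of the 9 genes under the alternatives, 3564 kept their side of the threshold, 22 lost it and 14 gained it. Most of the 3600 passed neither in the main fit nor in the alternative. Among those that passed in either fit, 0 changed sign. Sign changes of values that passed in neither were not counted, and they occurred, as for ego-1 in phase I (−0.15 to 0.14). rrf-2 passed in 33 of 33 alternatives in phases I, II and III and in the mean (log2 −1.14 to −0.87 in the mean), and in 31 of 33 in phase IV. mut-14 and mut-16 passed in 33 of 33 for the mean. With a pseudocount of 10 RPKM, the 2-fold count was 0 in phases I and III and in the mean in place of 1, since rrf-2 then fell by 0.95, 0.88 and 0.87 on the log2 scale and still passed the test. The any-size counts of phases I and II were 2 in place of 1 with a filter at 10 RPKM, with the read floor taken off and with a replicate block of generation, each time by mut-14 (adjusted p = 0.0565 to 0.0925). In WT at 23 °C the count was 0 in place of 1 with the prior not trended and with 23C-G1 counted. With 1 library left out, the any-size counts lay within 1 and 2 (phase I, otherwise 1), 1 and 3 (phase II, otherwise 1), 1 and 2 (phase IV, otherwise 2), 0 and 1 (WT at 23 °C, otherwise 1) and 0 and 2 (hrde-1 at 23 °C, otherwise 1), and the 2-fold count of phase III within 0 and 1 (otherwise 1).

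The labels do not say that a generation of both strains was grown together. Deviations of the same generation correlated by over 0.1 in 10 of 12 pairs, and 9 of 12 libraries correlated best with their own number, a hint of pairing that fell short of every pair, so the fit without the block was kept. With the block, mut-2 no longer passed in the mean (adjusted p = 0.107), and the other lost or gained calls under it were those of mut-14 above. Counts over all genes moved by more than 1.5 times, with the lowest and highest such values, for WT p15C (main 4536, otherwise 210 to 836), hrde-1 at 23 °C (main 8629, 1719 to 2164), the WT slope (main 103, 4 to 211), the hrde-1 slope (main 232, 67 to 145), hrde-1 p15C (main 505, 330 to 335) and phase I (main 2502, 1648 without hrde-1 15C-G3). Of the genes that passed in phase I, 48.0% were higher in hrde-1, and 36.5% with median-ratio scaling and 59.5% without the floor. The causes were not tested.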

Other observations

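Genes beside the members were looked at after the members' values were seen, as the nearest gene on each side in the current annotation (16 genes). Neither neighbour of rrf-2 passed the test between genotypes. Y47H10A.5, 683 bp away, stood at 2278 ± 385 RPKM in WT and 2071 ± 378 in hrde-1 (SD, n = 12, mean log2 difference −0.14, adjusted p = 0.362 in limma). M01G12.14, on the other side, was at 1.91 and 1.89 RPKM. Its values followed that of 1 read in each library, from 0.88 to 3.06 RPKM in WT and from 1.19 to 2.64 in hrde-1. No siRNA above this floor was seen, so its test says nothing about a change in siRNA. F26A3.4, 639 bp from ego-1 and on its strand, rose in hrde-1 from 114 ± 39 to 318 ± 140 RPKM (mean log2 difference 1.41 ± 0.13, adjusted p = 6.32e-09), most in phase IV (2.57), while ego-1 and rrf-1 beside it did not move detectably. B0379.1, next to mut-16, rose from a mean of 4.60 to 11.8 RPKM (1.16 ± 0.17, adjusted p = 1.11e-05), in the direction opposite to mut-16. bli-4 overlaps the end of mut-2 by 67 bp on the other strand and fell from 43.5 ± 5.0 to 29.4 ± 7.8 RPKM (−0.58 ± 0.09, adjusted p = 1.62e-05). In all, 5 of 16 neighbours passed as higher and 1 as lower in the mean of the 4 phases, where 23.2% of all genes passed in either direction.

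The genes whose siRNA was most like that of a member over the 24 libraries, among 8402 others, are given as a description. The libraries share their genotype, so that the likeness includes the gap between strains. For rrf-2 they were catp-1 (Pearson r = 0.94) and ndx-2 (0.93), for mut-14 F57C9.7 (0.92) and the P granule gene pgl-1 (0.91), for mut-7 dog-1 and F25G6.2 (0.86 each), for rrf-3 the dynein gene dhc-1 (0.86) and ulp-1 (0.81), and for ego-1 F19F10.9 (0.81) and tat-3 (0.80). For rde-2 they were C30B5.4 and F55F8.2 (0.78 each), for mut-16 M02E1.3 and T08D2.8 (0.78 each), for mut-2 K11D2.5 (0.77) and Y13C8A.1 (0.74), and for rrf-1 T08D2.8 and nasp-2 (0.72 each).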
